A study of Oryctolagus cuniculus with 6 samples.

Results

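Burn-only regions are stretches of the rabbit genome where at least 1 of 3 alkali-burned corneas had a peak of open chromatin and none of 3 naive corneas had one. They were chosen from the measured values themselves: overlapping peaks (by 1 bp or more) of the 6 deposited lists were joined into regions, and the presence or absence of a peak in each list selected the regions. This gave 1670 burn-only regions among 25829 merged regions outside chromosome X, or 26220 with it. The rule leaves out chromosome X, where 9 of 391 regions would have met it, each in 1 burned library. Because the presence of peaks chose the regions, their number, height, width and distance to naive peaks are descriptions, and no test was made of them.

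ATAC-seq marks accessible chromatin with a transposase that inserts sequencing adaptors into DNA not covered by nucleosomes. Its peaks lie mostly at promoters, enhancers and other regulatory elements, and a set of peaks therefore reflects the cell types and the activity of a tissue. The cornea has an outer epithelium, a stroma kept by keratocytes and an inner endothelium. After an alkali burn, inflammatory cells enter, keratocytes turn into fibroblasts and myofibroblasts, and the stroma can scar. The design sets the chromatin of burned corneas against that of naive ones.

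All corneas came from female rabbits and were collected on day 14. The 3 burned corneas had a filter disc of 8 mm with sodium hydroxide laid on them for 30 s, at a concentration that the labels give both as 0.5 N and as 1 N. The 3 naive corneas had no treatment, and the protocol describes them as the other eyes of burned rabbits, without tying library numbers to animals. The sources used here do not give strain or age. Each library was made from about 100000 nuclei of whole tissue, so more cells of a type and more open chromatin per cell cannot be told apart. The labelled tissue could not be checked against marker genes, since the lists name no genes and no annotation of their build was used. Regions are therefore given by position on the build OryCun2.0, counted from 1.

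The burned lists held 2319 to 4406 peaks and the naive lists 8416 to 21184. The genome background, the number of tags expected at a position by chance and a measure of relative depth, was 1.83 to 2.11 tags in the burned and 1.79 to 2.77 tags in the naive libraries. Burned library 3 stood apart from the other burned libraries with 4406 peaks against 2408 and 2319. The main counts, heights, widths and distances are also given without it.

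Most burn-only regions were seen in 1 burned cornea. They made up 6.47% of the 25829 merged regions, a share that the rule itself fixes. A peak in 1 burned library was found at 1537 regions (92.0%), in 2 at 119 (7.13%) and in all 3 at 14 (0.838%). In the opposite direction, 79.8% of merged regions had a peak in at least 1 naive and no burned library, and these lists are longer. Regions called in at least 2 burned libraries numbered 133 (0.515% of merged regions), and the 14 called in all 3 were 0.0542%. The corresponding shares for the naive libraries were 22.8% and 10.4%. The counts of 133 and 14 depended on the lists: they were 678 and 206 with all lists brought to 2319 peaks, where 1472 of all 2228 burn-only regions overlapped a peak of a whole naive list, and 313 and 46 without naive library 1.

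Burned library 3 alone supplied 1105 of the 1670 regions, library 1 alone 233 and library 2 alone 199. Among regions with 2 burned libraries, 60 were shared by libraries 2 and 3, 47 by libraries 1 and 3, and 12 by libraries 1 and 2. Without burned library 3, 578 burn-only regions were left, 26 of them with a peak in both remaining libraries. Regions found in no other of the 6 libraries were 26.2% of the regions of burned library 3, 10.4% of library 1 and 9.21% of library 2 (95% Wilson intervals 24.9 to 27.6, 9.20 to 11.7 and 8.06 to 10.5, which cover counting error only). For naive libraries 1, 2 and 3 such regions made up 19.0%, 60.2% and 8.82%. Private regions were thus not confined to the burned libraries, and both groups had a library with a larger share than the others.

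**Figure D1:**
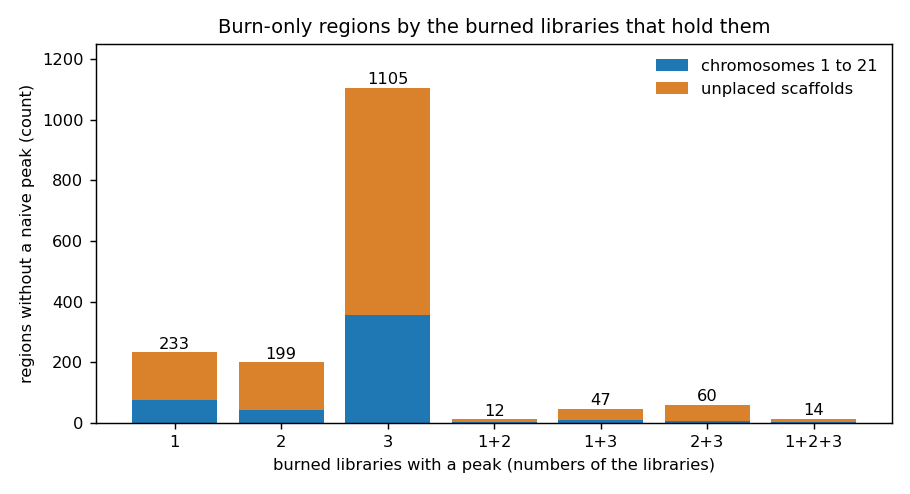
Number of burn-only regions (y axis, count) for each combination of burned libraries that hold a peak there (x axis, library numbers), with chromosomes 1 to 21 in blue and unplaced scaffolds in orange. The bar of library 3 alone holds 1105 regions, and the bar of all 3 libraries holds 14.

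Most of the regions lay on sequence that the assembly places on no chromosome. Unplaced scaffolds, with names starting GL or AAGW, held 1179 regions (70.6%) and chromosomes 1 to 21 held 491 (29.4%). In an alternative, peaks with a local background of 1.5 times the genome background or more were left out of every list. Scaffolds then held 580 regions and chromosomes 554, or 51.1% on scaffolds. Of these 1134 regions, 254 overlapped a peak of a whole naive list. The 1179 were 12.3% of merged regions on scaffolds, and the 491 were 3.02% of merged regions on chromosomes. Among regions with a burned peak the order was the reverse. Burn-only regions were 1179 of 3935 of these on scaffolds (30.0%) and 491 of 1277 on chromosomes (38.4%). Scaffolds thus held 3935 of all 5212 regions with a burned peak. Of the 133 regions in at least 2 burned libraries, 112 lay on scaffolds (1.17% of merged regions there) and 21 on chromosomes (0.129%). In all 3 burned libraries there were 11 regions on scaffolds (0.115%) and 3 on chromosomes (0.0185%). Among regions seen in 1 library alone, 74 of 233 were chromosomal in library 1, 41 of 199 in library 2 and 355 of 1105 in library 3, so scaffolds held the larger part in each.

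The 14 regions that every burned list held had folds of 2.16 to 7.18. The fold is the authors' value for each peak, the ratio of tags at its summit to the local background, and it describes a peak within its own list. The 3 burned libraries differed by an SD below 1 in 13 of the 14 regions, with a median SD of 0.477. Summits held 12 to 75 tags. The highest fold was in burned library 3 at 7 of the 14 regions, in library 1 at 4 and in library 2 at 3. The -log10 q, the authors' measure of the significance of a peak over its background, was at least 5 in every burned library at 4 regions and in at least 1 library at 13.

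On chromosomes, the region with the highest mean fold was chromosome 16, 4296889 to 4297164, with folds of 6.13, 5.03 and 6.59 in burned libraries 1, 2 and 3 (5.91 ± 0.802, SD, n = 3). Its summits held 18, 18 and 21 tags and lay within 29 bp of each other. The nearest naive peak was 12510 bp away, in naive library 2. Chromosome 12, 152836979 to 152837354, had folds of 5.00, 5.15 and 5.28 (5.14 ± 0.140). The values of the 3 corneas were close to each other there, and the nearest naive peak was 46591 bp away. Chromosome 14, 12644558 to 12644854, had folds of 4.45, 4.83 and 5.48 (4.92 ± 0.521), from 12, 14 and 15 tags. Its -log10 q was 3.20, 4.28 and 5.71, so this was the weakest of the chromosomal regions by mean fold. Among them it also stood farthest from a called naive peak, the nearest lying at 461890 bp, and its summits agreed within 2 bp.

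On scaffolds, GL018801 at 231478 to 231740 had the highest mean fold, from 6.38, 6.45 and 7.18 in burned libraries 1, 2 and 3 (6.67 ± 0.445). Its -log10 q of 8.06, 10.1 and 12.4 was also the highest mean of the 14 regions, as the plot of the 14 regions shows. GL019784 at 1866 to 2215 had folds of 6.80, 6.17 and 5.06 with summits within 9 bp. No naive list had any peak on that scaffold, nor on GL019626, whose region at 3779 to 4015 had folds of 3.47, 4.19 and 3.86. GL018812 at 471314 to 471669 varied most between corneas, with folds of 6.80, 5.28 and 4.39 (5.49 ± 1.22).

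A naive peak lay close to 4 of the 11 scaffold regions. The gap was 82 bp at AAGW02083619, 1876 to 2197, and 104 bp at GL018701, 6943740 to 6944134. It was 186 bp at AAGW02083773, 2750 to 3061, and 206 bp at GL019317, 78133 to 78855. At these 4 regions the naive peak next to the burned one had a fold of 2.58, 4.55, 3.46 and 4.24 in the same order, against mean burned folds of 2.27, 4.80, 4.40 and 4.20. The neighbouring naive peaks thus differed by less than 1 unit of fold from the burn-only means. AAGW02083619 had the lowest fold of the 14 regions (2.32, 2.16 and 2.32) but the most tags (65, 55 and 75), on a local background of 27.5, 24.9 and 31.8 tags.

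The other scaffold regions stood at a greater distance. GL018774 at 36634 to 36958 had folds of 4.88, 4.95 and 5.79, and GL018737 at 359864 to 360408 had folds of 4.01, 4.25 and 4.79. Their nearest naive peaks were 21106 bp and 63091 bp away. The summits at GL018737 were 319 bp apart, the widest spread among the 14 regions, so the 3 burned peaks there did not share a summit. GL019750 at 17797 to 18368 had folds of 4.20, 5.24 and 4.29 and lay 5650 bp from a naive peak.

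**Figure D2:**
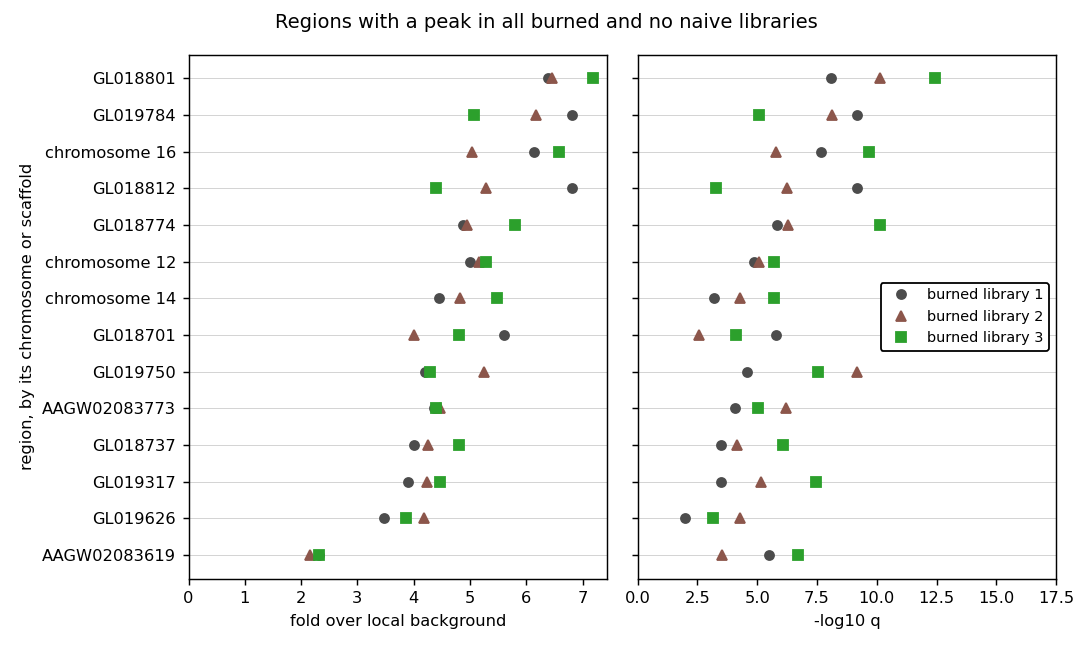
Fold over local background (left) and -log10 q (right) of the 14 regions that all 3 burned lists and no naive list held, 1 row per region named by its chromosome or scaffold, 1 symbol per burned library. Folds lie between 2.16 and 7.18, and the SD over the 3 symbols of a region is below 1 in 13 of the 14 rows.

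Regions with a peak in 2 burned libraries reached similar heights. The highest on chromosomes was chromosome 16, 67488613 to 67489042, with folds of 6.76 in burned library 2 and 5.93 in library 3, from 24 and 22 tags. Chromosome 3, 28011128 to 28011362, followed with 6.86 in library 1 and 5.49 in library 3, and both libraries had their summit at the same base. Chromosome 8, 111431973 to 111432219, had 5.15 in library 2 and 6.29 in library 3. These regions lay 69308, 40972 and 34444 bp from the nearest naive peak, so none adjoined a called naive peak. Chromosome 13, 120473515 to 120473774, was shared by libraries 1 and 2, unlike the other 4 named chromosomal regions, with folds of 5.30 and 5.99. Chromosome 12, 49951214 to 49951465, had folds of 4.95 in library 1 and 5.83 in library 3 and lay 188618 bp from a naive peak. The 21 chromosomal regions in 2 or 3 burned libraries were spread over 11 chromosomes, with at most 3 on any (chromosomes 8 and 14).

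On scaffolds, GL018701 at 7497004 to 7497294 had the highest mean fold of regions in 2 burned libraries, with 5.66 in library 1 and 7.88 in library 3, and 15 and 22 tags. GL018717 at 3128528 to 3128754 had 7.11 in library 2 and 6.42 in library 3, and GL018798 at 689543 to 689827 had 6.03 and 7.06 in the same libraries. GL018865 at 196909 to 197144 (5.68 and 6.42) and GL019636 at 37242 to 37617 (5.15 and 6.37) were also shared by libraries 2 and 3. Distances to the nearest naive peak were 9486 to 186193 bp among these 5 regions. In all 5, the value of 1 library differed from the other by 0.683 to 2.22 in fold, and library 3 had the higher value in 4 of them.

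The highest fold of all burn-only regions was in the class seen in 1 cornea, which held 1537 of the 1670 regions. The median of the mean fold ran the other way, at 4.24, 4.48 and 4.86 for regions in 1, 2 and 3 burned libraries. GL018747 at 1406568 to 1406833 had a fold of 8.22 and 23 tags in burned library 3. GL018917 at 36447 to 36679 had a fold of 7.96 and GL018947 at 253657 to 253915 a fold of 7.29, both in burned library 1. On chromosomes, chromosome 7 at 65456968 to 65457194 (fold 7.20) and chromosome 10 at 6016691 to 6016975 (7.05) were called in library 3, and chromosome 14 at 44568571 to 44568781 (6.69) in library 1. Recurring regions reached folds in the same range, up to 7.88 on GL018701 at 7497004 to 7497294 and 6.86 on chromosome 3 at 28011128 to 28011362.

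Recurrence looks up the regions of 1 burned library in another burned library. The class itself is still chosen by the absence of a naive peak. Its peaks were lower in -log10 q and narrower than the others, as given further on. Of the burn-only regions of burned library 1, 8.50% had a peak in library 2 and 19.9% in library 3 (95% Wilson intervals 5.86 to 12.2 and 15.8 to 24.8, n = 306 regions). For library 2 the shares were 9.12% in library 1 and 26.0% in library 3 (6.30 to 13.0 and 21.2 to 31.4, n = 285). For library 3 they were 4.98% and 6.04% (3.89 to 6.34 and 4.84 to 7.51, n = 1226). Libraries 1 and 2 had only 306 and 285 burn-only regions, so most of the 1226 of library 3 could not recur there. Of the burn-only regions of libraries 1 and 2, most had no peak in either other burned cornea looked up.

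Regions of the same burned libraries that also had a naive peak recurred at 52.7% to 84.4%. With a peak in exactly 1 naive library, the 6 shares were 20.7% to 54.0%, and each lay above the share of burn-only regions for the same pair of libraries. On chromosomes alone, burn-only regions recurred at 2.41% to 17.3%, and on scaffolds at 5.63% to 27.9%. The intervals cover counting error and not the spread between corneas, and regions of 1 library share its depth. Regions with a naive peak are also widened by merging with it, so the classes differ by construction. The part of this and of peak significance in the recurrence was not tested.

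**Figure D3:**
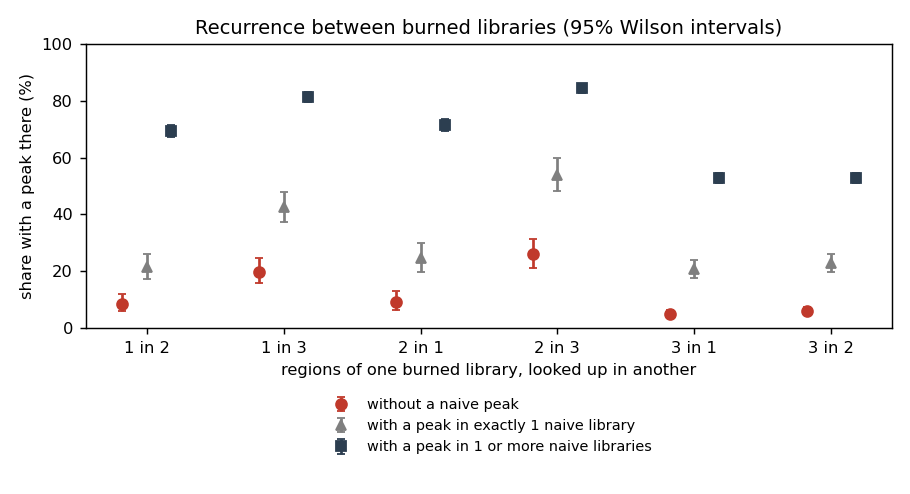
Share (y axis, %) of the regions of 1 burned library that had a peak in another (x axis, "1 in 2" for regions of library 1 looked up in library 2), for regions without a naive peak, with a peak in exactly 1 naive library, and with a peak in 1 or more. Bars are 95% Wilson intervals. The shares without a naive peak, 4.98% to 26.0%, are the lowest of each pair.

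The spread of summits at recurring regions is limited by the rule, since their peaks overlap and most are little wider than 200 bp. Between the 2 burned libraries of a region the summits were a median of 53 bp apart, and within 100 bp at 88 of 119 regions (73.9%). At the 764 regions with 2 burned libraries and a naive peak, the median was 56 bp. In all 3 libraries the spread of summits was a median of 90 bp at the 14 burn-only regions, 8 of which lay within 100 bp, and 82 bp at the 1245 regions with a naive peak.

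Burn-only peaks were lower in significance than the other peaks of the same lists. The median -log10 q was 3.98, 4.55 and 4.09 in burned libraries 1, 2 and 3, against 7.21, 7.62 and 6.69 for peaks of regions with a naive peak. At least 5 was reached by 26.1%, 40.9% and 28.7% of burn-only peaks and by 74.9%, 75.9% and 69.9% of the others. At least 10 was reached by 1.63%, 1.75% and 1.63% against 30.9%, 33.8% and 27.7%. By its highest -log10 q in any burned library, a burn-only region lay below 3 in 285 cases, from 3 to 5 in 883, from 5 to 10 in 475 and at 10 or above in 27.

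The fold separated these peaks less than the q-value. Over all sequence the median fold was 4.30, 4.24 and 4.26 for burn-only peaks of libraries 1, 2 and 3 and 4.34, 4.21 and 4.45 for the others. On chromosomes it was 4.60, 4.68 and 4.53 against 5.72, 5.77 and 4.94. On scaffolds it was 4.11, 4.18 and 4.08 against 4.12, 4.02 and 4.21. The quartiles of the fold overlapped in every library, on chromosomes and on scaffolds. The tags, solved from the same fold and p-value and so no separate evidence, gave burn-only peaks a median of 16, 18 and 16 at the summit and the others 30, 33 and 26. The local background was a median of 1.42, 1.52 and 1.48 times the genome background at burn-only peaks and 2.95, 3.05 and 2.17 times at the others.

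**Figure D4:**
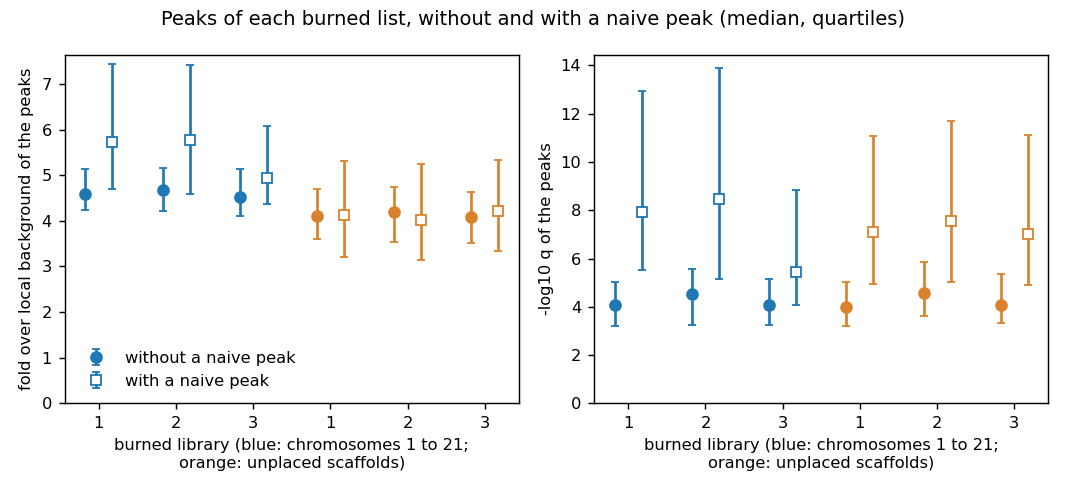
Median (symbols) and quartiles (bars) of the fold over local background (left) and of -log10 q (right) of the peaks of burned libraries 1, 2 and 3, on chromosomes 1 to 21 (blue) and unplaced scaffolds (orange). Filled circles are peaks of burn-only regions and open squares are peaks of regions with a naive peak. On scaffolds the median folds are close (4.11 against 4.12 in library 1), whereas the median -log10 q of burn-only peaks is lower in every library. The quartiles on scaffolds overlap for both values.

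With the burned lists pooled, the -log10 q was higher in the classes with more burned libraries, whereas the fold differed less. The classes count the lists in which a peak passed a significance limit, so they are tied to the -log10 q by construction. Over all sequence the median -log10 q of the peaks was 4.09, 4.82 and 5.71 for regions in 1, 2 and 3 burned libraries, and their median fold was 4.24, 4.25 and 4.80. On chromosomes the median fold of the peaks was 4.56, 5.03 and 5.15, and on scaffolds 4.08, 4.13 and 4.43. Within a list the order was not always the same. For scaffold peaks of burned library 1 the median fold was 4.19, 3.90 and 4.36 in regions with 1, 2 and 3 burned libraries (n = 159, 47 and 11 peaks). For chromosomal peaks of burned library 2 it was 4.51, 5.16 and 5.03 (n = 41, 8 and 3 peaks). The median -log10 q of these peaks was 4.08, 5.86 and 5.08. For chromosomal peaks of burned library 3 the median -log10 q was 4.09, 5.72 and 5.71. For chromosomal peaks of burned library 1 and scaffold peaks of every burned library, the median -log10 q rose from class to class. Tags and background differed by place: chromosomal burn-only peaks had a median of 14 tags and a local background 1.04 times the genome background, and scaffold peaks 18 tags and 1.75 times.

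Burn-only peaks on high local background were nearly all on scaffolds, but the other scaffold peaks had a higher median background. In burned libraries 1, 2 and 3 that median was 1.69, 1.67 and 1.78 times the genome background at burn-only scaffold peaks. At scaffold peaks of regions with a naive peak it was 3.68, 3.71 and 2.79 times. A local background of at least 5 times the genome background was found at 136 of 1304 burn-only scaffold peaks (10.4%) and at 3 of 515 chromosomal ones (0.583%). The most extreme burn-only peak, singled out after its values were seen, lay on AAGW02081404 at 10882 to 11095 in burned library 3. Its summit held 270 tags on a local background of 194 tags, 101 times the genome background, with a fold of 1.39 and a -log10 q of 3.39. That fold was the lowest of all burn-only peaks.

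Most burn-only regions were narrow. The smallest width in every list was 200 bp, and 423 burn-only regions (25.3%) had exactly that width. The median width was 212 bp on chromosomes and 225 bp on scaffolds for regions in 1 burned library. For regions in 2 it was 286 and 296 bp, and in 3 it was 297 and 350 bp, but merged peaks of several libraries are wider by construction. Within a list, the median width of burn-only peaks was 221, 220 and 225 bp in burned libraries 1, 2 and 3, against 316, 308 and 312 bp for the others.

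The distance to the nearest naive peak differed between chromosomes and scaffolds. On chromosomes its median was 50203 bp, with quartiles of 18283 and 145168 bp. On scaffolds that held a naive peak the median was 7717 bp, with quartiles of 1140 and 28358 bp. Within 1 kb of a naive peak lay 27 chromosomal regions (5.50%) and 239 scaffold regions (20.3%), and within 100 kb 66.2% and 81.2%. No naive peak was on the same scaffold for 161 regions, on 136 scaffolds. Distances depend on how many naive peaks a sequence holds and, on scaffolds, on its length.

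On chromosomes the median distance did not run in the order of the classes. It was 50221 bp for the 470 chromosomal regions in 1 burned library, 51730 bp for the 18 in 2 and 46591 bp for the 3 in all 3. On scaffolds it was 7936, 6697 and 1737 bp. None of the 21 chromosomal regions in 2 or 3 burned libraries lay within 1 kb of a naive peak, the closest being at 3459 bp. Among scaffold regions 20.1% of those in 1 library, 19.8% of those in 2 and 4 of the 11 in all 3 lay within 1 kb.

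**Figure D5:**
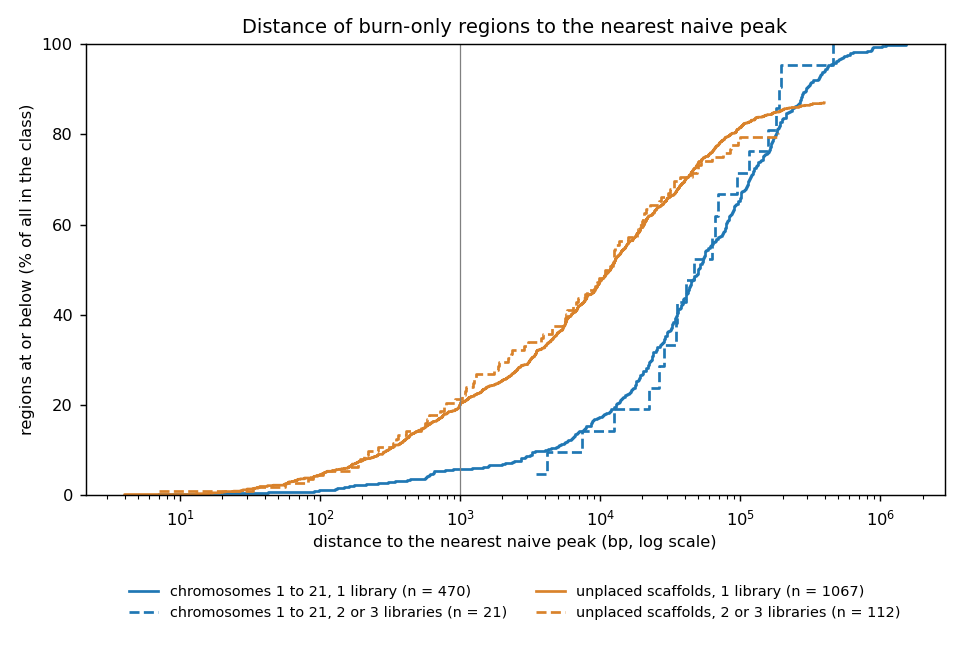
Cumulative share of burn-only regions (y axis, % of all regions of a class) by the distance to the nearest naive peak (x axis, bp on a log scale), for chromosomes 1 to 21 (blue) and unplaced scaffolds (orange), in 1 burned library (solid) or 2 or 3 (dashed). At 1 kb, the grey line, 5.50% of chromosomal and 20.3% of scaffold regions lie to the left, and the orange lines end below 100% because 161 scaffold regions have no naive peak on their sequence.

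The regions farthest from any naive peak on chromosomes were each seen in 1 burned library. Chromosome 1 at 163550068 to 163550271 (fold 5.56, 17 tags, burned library 2) lay 1511964 bp from the nearest naive peak. On chromosome 14, 2 regions at 59600182 to 59600403 (fold 6.17, 17 tags) and 59541200 to 59541399 (4.80, 13 tags) were both called in burned library 3, at 1088530 and 1029548 bp from the same naive peak. Chromosome 3 at 27013437 to 27013673 (4.84, burned library 3) and chromosome 2 at 128986374 to 128986573 (3.96, burned library 2) were at 885479 and 873683 bp. In all 5 cases the nearest naive peak came from naive library 2, which has the longest list.

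The limit of the rule falls at 1 shared base. Just inside, GL019074 at 61432 to 61631 (fold 4.24, burned library 1) and GL019921 at 1457 to 1656 (3.59, burned library 2) each lay 4 bp from a peak of naive library 1, whose folds were 4.51 and 3.24. Chromosome 8 at 37674394 to 37674644 (4.57, burned library 3) lay 7 bp from a peak of naive library 2 with a fold of 3.63. AAGW02082988 at 7659 to 8035, called in burned libraries 1 and 2 with folds of 4.65 and 4.20, tied with it at 7 bp. Just outside, the burned and naive peaks of AAGW02083392 at 6261 to 6703 shared 1 bp (folds 3.00 in burned library 2 and 2.60 in naive library 2). Those of chromosome 9 at 103570701 to 103571203 shared 7 bp (4.32 in burned library 3 and 3.85 in naive library 2). AAGW02082920 at 674 to 1471 also shared 7 bp, with folds of 4.38 in burned library 1, 4.51 in naive library 1 and 4.32 in naive library 3. In all, 60 burn-only regions had a naive peak within 100 bp, and 76 of the 3542 regions left out by a naive peak shared at most 100 bp with it.

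The lists hold no values below their limits, so how many tags a naive library had at a burn-only region is unknown. The lowest -log10 p in a list was 5.24, 5.20 and 4.30 in burned libraries 1, 2 and 3 and 4.45, 3.97 and 4.53 in naive libraries 1, 2 and 3. The part of depth in the burn-only calls was not tested.

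Each chromosome from 1 to 21 held burn-only regions. Their number ran from 6 on chromosome 21 to 44 on chromosome 1. As a share of the regions with a burned peak, they made up 25% on chromosome 19 (10 of 40) to 50% on chromosomes 6 (10 of 20) and 11 (19 of 38). Over chromosomes 1 to 21 together the share was 38.4% (491 of 1277). On chromosome 6 all 10 came from burned library 3. Chromosomes 7, 8 and 13 each held 38, and the median distance to a naive peak there was 101110, 58650 and 45833 bp.

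On scaffolds, 872 burn-only regions lay on names starting GL and 307 on names starting AAGW. They were 32.4% of the 2694 GL regions and 24.7% of the 1241 AAGW regions with a burned peak. The regions were spread over 705 scaffolds, of which 470 held 1 region. The densest scaffold was GL018762, with 21 burn-only regions between 73423 and 1456716. All 21 had a peak in burned library 3, 2 in library 1 and 1 in library 2. The same scaffold had 103, 54 and 54 peaks in naive libraries 1, 2 and 3, so its burn-only regions lay among many naive ones.

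By windows of 1 Mb, the first window of GL018762 held the most burn-only regions, 14 among 89 regions with a burned peak. GL018858 followed with 9 of 12, between 26142 and 601240, and GL018790 with 8 of 25. Over all scaffolds the share was 30.0% (1179 of 3935), so the window with the most regions lay below it. In the window on GL018858 the naive lists had 10, 11 and 5 peaks, and 8 of the 9 burn-only regions were in burned library 3. The densest chromosomal window held 5 regions, on chromosome 18 between 6036217 and 6185186, with 4 of the 5 in burned library 3 and 11, 10 and 7 naive peaks in the window. Chromosome 16 had 4 between 5174031 and 5971039, all in burned library 3 alone. The windows on chromosomes 18 and 16 held 11 and 5 regions with a burned peak. Most windows with a burn-only region held 1 (879 windows).

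Burn-only regions had a neighbour of their own kind more often on scaffolds than on chromosomes. Another burn-only region lay within 10 kb of 10 chromosomal regions (2.04%) and of 214 scaffold regions (18.2%). A burned peak with a naive counterpart lay within 10 kb of 21 chromosomal (4.28%) and 294 scaffold regions (24.9%). A naive peak lay within 10 kb of 85 chromosomal (17.3%) and 560 scaffold regions (47.5%). The same shares were not computed for other regions, so whether these are low or high was not tested.

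Without burned library 3, scaffolds held 442 of the 578 burn-only regions (76.5%), the median fold of the peaks was 4.24 and the median -log10 q 4.19. The median width was 221 bp, and 26.3% had the smallest width. The median distance to a naive peak was 61922 bp on chromosomes and 4591 bp on scaffolds, where 28.7% lay within 1 kb. A local background of at least 5 times the genome background was found at 56 of 463 scaffold peaks (12.1%) and at none of 141 chromosomal ones. Another burn-only region lay within 10 kb of 2 chromosomal (1.47%) and 45 scaffold regions (10.2%). By chromosome, the share of regions with a burned peak that were burn-only then ran from 0 of 5 on chromosome 6 to 12 of 25 (48%) on chromosome 14. The distance and the share with a neighbour were thus lower on scaffolds than with library 3, and fewer regions leave fewer neighbours by construction. These values were added after the data were seen.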

How the data were processed

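ATAC-seq peak lists of 6 corneas, 3 naive and 3 burned, were used. Per the submitters' processing notes, the build was OryCun2.0 and the tools included FastQC, Bowtie2 and SAMtools, without versions. For the peak caller, duplicate removal and any shift of reads, the step is not given in the sources used here. Separately for each library, the authors called peaks. The deposited lists give the fold of each peak (a ratio of tags to local background), the -log10 of its p-value and q-value, a score made from the -log10 q, and the summit. Depth as a read total is not in the lists. Tags and local background were recovered from the authors' fold and -log10 p, as tags plus 1 over background plus 1 with a Poisson p-value. All peaks had a solution within 0.001 of the -log10 p. This reading of the caller's model is inferred from the values. The most frequent background of a list was taken as its genome background. The highest q-value in any list was 0.0376.

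Peaks sharing at least 1 bp were merged, and regions with a burned and no naive peak were kept outside chromosome X. Of several peaks of 1 library in a region, the highest fold was used for region means. Distance is the number of bases between a region and the nearest naive peak. No group test was made, since the rule uses the same values. The rule for named regions took all regions in 3 burned libraries, those of highest mean fold in 2 (5 each on chromosomes and scaffolds) and in 1 (3 each), the 3 nearest to a naive peak and the 3 nearest misses, the 5 farthest chromosomal regions and the 3 densest 1 Mb windows. The densest scaffold and chromosomal window, the chromosomes named for their counts and the peak of highest background were added after the values were seen. The members and lists were chosen with earlier results of these data known. Merging and recovery were tested on simulated data. The simulated backgrounds were low, so the test of recovery did not cover the peaks of highest local background and lowest fold. Alternatives were stricter q limits, 1 p limit, equal list lengths, other overlap rules, low local background and leaving out each library. No sequence or annotation of the build was used. The software was scipy 1.17.1, pandas 2.3.3 and numpy 2.4.6 under Python 3.11.15, with matplotlib 3.10.9 for plots.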

Additional observations from a re-analysis of the deposited data

How the results depend on the processing

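The number of burn-only regions stayed within 1.5 times of 1670 in 11 of 14 alternatives. A similar number did not always mean the same regions. Of the 1670, 919 were lost at equal list length (2228 regions) and 790 with low local background (1134 regions). With any 1 naive library left out, 0 were lost. With a -log10 q of at least 5 in every list there were 820 regions, 177 on chromosomes, 643 on scaffolds and 9 in all 3 burned libraries, with a median fold of 4.86. Of the 820, 315 overlapped a peak of a whole naive list. With that limit on the burned lists alone there were 505 regions, 131 on chromosomes, 374 on scaffolds, 44 in at least 2 burned libraries and 4 in all 3, with a median fold of 5.10. With all lists brought to the same length (the 2319 most significant peaks) there were 1844 on scaffolds, 678 in at least 2 and 206 in all 3, and 8.35% lay within 1 kb of a naive peak. Of those 2228 regions in all, 1472 overlapped a peak of a whole naive list. With peaks less than 500 bp apart merged, 5.16% lay within 1 kb of a naive peak, by construction, and the median fold was 4.31. With only peaks of local background under 1.5 times the genome background there were 580 on scaffolds, 56 in at least 2 and 7 in all 3, with 6.26% within 1 kb and a median fold of 4.71. Of those 1134 regions in all, 254 overlapped a peak of a whole naive list. Except where the construction shows it, the cause was not tested.

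With 1 library left out, the number of burn-only regions was 578 to 2358, on chromosomes 136 to 614, on scaffolds 442 to 1744, in at least 2 burned libraries 26 to 313 and in all burned libraries left 21 to 74. The share within 1 kb was 13.5% to 22.8% and the median fold 4.24 to 4.28. Burned library 3 moved the most: without it there were 578 regions, 136 on chromosomes and 442 on scaffolds, 26 in both other burned libraries, with 22.8% within 1 kb. Without burned libraries 1 and 2 in turn, 74 and 61 regions were in both burned libraries left. Without naive library 1, 313 regions were in at least 2 and 46 in all 3 burned libraries. Leaving out a naive library adds regions by construction. No paired analysis was possible because the results come from no test and the labels tie no library number to an animal. The lists show nothing below their limits, so a weaker naive signal cannot be told from none.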

Other observations

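The naive libraries kept regions out of the burn-only class to different extents. Of 5212 regions with a burned peak outside chromosome X, 1783 (34.2%) had a peak in all 3 naive libraries, 793 in 2 and 966 in exactly 1. Of these 966, 643 had their peak in naive library 1 alone, against 166 in naive library 2 alone and 157 in naive library 3 alone. Naive library 2 has the longest list, 21184 peaks, and naive library 1, with 8808 peaks, has the highest genome background, 2.77 tags. On scaffolds the 3 numbers were 522, 132 and 132, and on chromosomes 121, 34 and 25, in the same order of libraries. The part of depth in these counts was not tested.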
